A study of Solanum lycopersicum with 18 samples.

Results

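The comparison described here is that of *dgt* with wild type (WT) in the root meristem of tomato seedlings. Its members are the 6 of 18 RNA-Seq libraries whose tissue label is meristem, 3 of genotype dgt1-1 and 3 of WT, both in the cultivar Ailsa Craig. The seedlings were 7 days old, grew on an agar medium, and gave about 50 to 100 dissected root portions to each biological replicate, so each library is a pool of many seedlings. The other 12 libraries come from the elongation zone and the differentiation zone and were used to compare the effect between zones, to set marker levels beside those of the meristem and in 1 alternative fit.

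The *dgt* mutant carries a lesion in *DIAGEOTROPICA*, which encodes a cyclophilin, a protein that turns proline bonds in other proteins. Mutant plants respond weakly to auxin and make almost no lateral roots. Auxin acts by promoting the breakdown of Aux/IAA repressors, which frees auxin response factors (ARFs) to switch on their targets, many Aux/IAA genes among them. In a root meristem, auxin made locally and moved by PIN carriers sets where cells divide and where they start to elongate, and ethylene, gibberellin, cytokinin and abscisic acid (ABA) act on the same decision. The symbol DGT is missing among the gene names used, and whether CyP, listed by a cyclophilin symbol, is DGT was not established. CyP had 48971, 50633 and 50302 normalized counts in *dgt*, against 59195, 101970.1 and 45566 in WT (log2 fold change -0.46, edgeR adjusted p = 0.328; without WT replicate 2, -0.07), so the mutation could not be checked at the RNA level.

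In the *dgt* meristem many more genes were more than 2-fold higher than were more than 2-fold lower. Of 19926 genes tested, 2019 (10.1%) were higher and 542 (2.72%) were lower in *dgt* by edgeR's quasi-likelihood test, 12.9% in either direction. A call required a p-value adjusted after Benjamini and Hochberg of less than 0.05 together with a change of more than 2-fold. Among the named genes with a symbol and more than 3 counts in some library of each genotype, the dehydrin TAS14 had the largest rise and the alcohol dehydrogenase ADH2 the largest fall. The p-values rest on the spread among 3 pooled replicates of each genotype. A standard error below is the absolute log2 fold change divided by the square root of edgeR's quasi-likelihood F statistic. For genes with few counts in a genotype it can be smaller than counting error alone, so it gives no interval for the fold change. Values below are normalized counts, the expected counts divided by a library's TMM-scaled size relative to the mean of the 6 libraries. They are given for replicates 1, 2 and 3 of each genotype, and the fold changes are *dgt* over WT.

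The library of WT replicate 2 stood apart from the rest. Its expected counts summed to 29133603, against 17919441 to 22208002 in the other 5 libraries. Among 16303 genes with a mean of at least 50 normalized counts, it was the highest library by over 2-fold for 73 genes and the lowest by over 2-fold for 461. The other libraries were so for 0 to 8 and 0 to 77 genes. Genes low in WT replicate 2 were long, with a median length of 3584 bases, and those high in it short, with a median of 902 bases, against 1716 bases over all these genes. Its rank correlation with WT replicates 1 and 3 was 0.920 and 0.925, while those 2 correlated at 0.991 and the *dgt* libraries at 0.989 to 0.994. With the *dgt* libraries WT replicate 2 correlated at 0.913 to 0.926, and WT replicates 1 and 3 did so at 0.901 to 0.926. The biological coefficient of variation was 0.0966 among the *dgt* libraries and 0.307 among the WT libraries, or 0.111 without WT replicate 2.

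**Figure D1:**
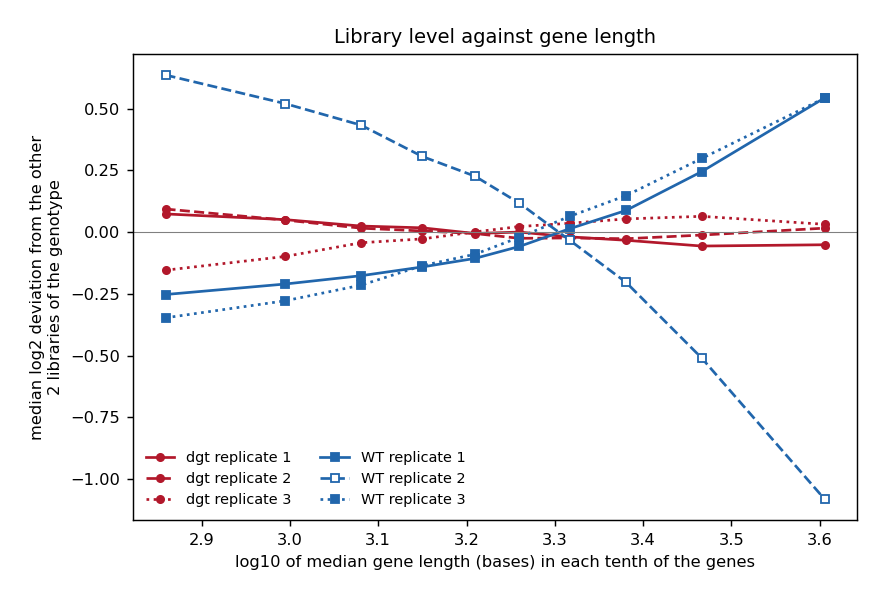
Median log2 deviation of each meristem library from the other 2 libraries of its genotype (y axis), for genes ordered by length and split into equal bins, against log10 of the median length in bases (x axis). WT replicate 2 (open squares) lies above its group for short genes and below it for long genes, while the 3 *dgt* libraries (circles) stay close to 0.

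Leaving out WT replicate 2 raised the number of calls in both directions and changed their balance. Without it, 2539 of 20336 genes tested (12.5%) were higher in *dgt* and 1515 (7.45%) were lower, 19.9% in either direction. Of the genes called with 6 libraries, 1928 higher and 468 lower genes were called again, 91 and 74 were lost, and none was called in the opposite direction. A further 471 higher and 1028 lower genes were called only without it, among those tested in both fits. The higher genes made up 78.8% of all calls with 6 libraries and 62.6% without WT replicate 2. The number of lower genes also depended on the *dgt* libraries and was 301, 347 and 308 without *dgt* replicate 1, 2 and 3. At any fold, 2881 genes passed the edgeR adjusted p-value as higher and 1655 as lower with 6 libraries. Without WT replicate 2 these numbers were 5389 and 5323, nearly equal, so there the imbalance lay among changes of more than 2-fold. The median log2 fold change over all genes tested was -0.04 with 6 libraries and 0.04 without WT replicate 2. Scaling by library totals moved that median to 0.18, and the changes below are relative to the TMM scale. Log2 fold change and gene length had a rank correlation across genes, which are not independent replicates, of -0.177 with 6 libraries and -0.339 without WT replicate 2. The part of length in the calls was not tested beyond a fit with a length trend removed from each of the 6 libraries, which called 2114 higher and 615 lower genes. That fit was not run without WT replicate 2, so it does not cover the calls made only without that library.

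**Figure D2:**
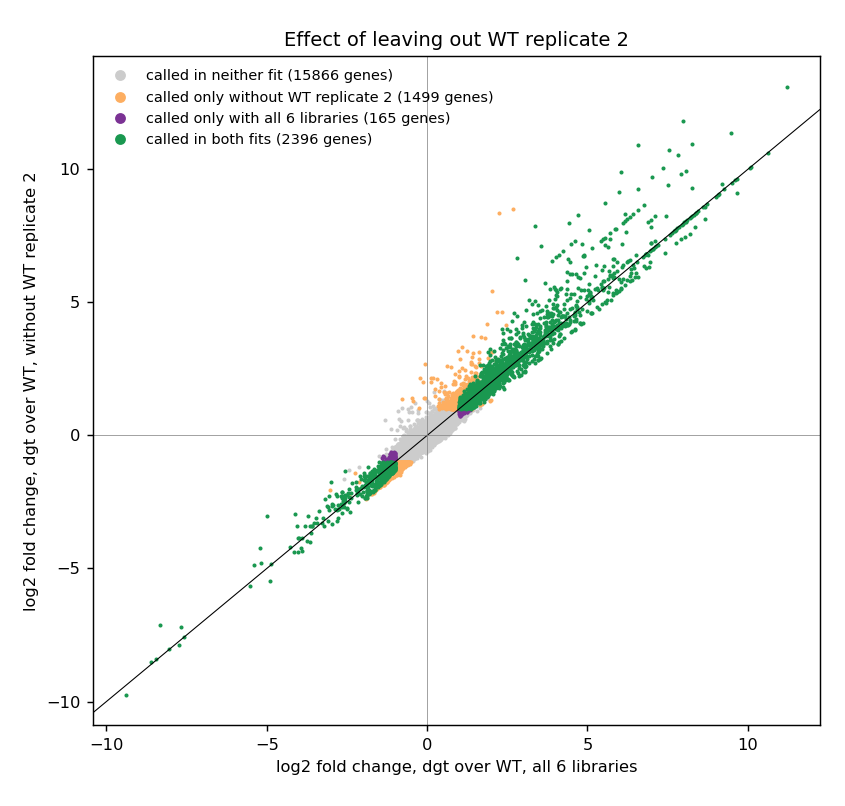
Log2 fold change of *dgt* over WT for each gene with all 6 meristem libraries (x axis) and without WT replicate 2 (y axis). Green points are the 2396 genes called in both fits, orange the 1499 called only without WT replicate 2, purple the 165 called only with all 6 libraries, and grey the rest. The points follow the diagonal, and no gene is called in opposite directions.

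The dissected tissue had the markers of dividing cells. The summed level of 8 genes of dividing cells (A and B type cyclins, B type cyclin-dependent kinases and pcna) was 567 to 663 TPM in the *dgt* meristem and 738 to 832 TPM in the WT meristem, against 85.9 to 178 TPM in the other zones of both genotypes. The 25 expansin and xyloglucan genes taken as markers of elongating cells summed to 692 to 811 TPM in the *dgt* meristem and 624 to 675 TPM in the WT meristem, against 1957 to 2306 TPM in the elongation zones. The 4 markers of differentiated cells (ext1, TPx1, TPX2, CEVI-1) summed to 295 to 339 TPM in the *dgt* meristem and 349 to 401 TPM in WT. In the other zones of both genotypes they summed to 721 to 2162 TPM. In the meristem ext1 and CEVI-1 had at most 11 and 14 counts in any library, so the sum there came nearly all from TPx1 and TPX2. The dividing-cell sum was thus lower, and the elongating-cell sum higher, in every *dgt* meristem library than in every WT one. Of 12 expansins tested, 4 had a log2 fold change above 0 with 6 libraries (median -0.14), and without WT replicate 2 their median was 0.06. The elongating-cell sum is on the TPM scale and also holds xyloglucan genes, and which members raised it was not tested. The sum for differentiated cells was also lower in every *dgt* meristem library than in every WT one. The part of these shifts in the results below was not tested, and in a bulk sample fewer cells of a type and less RNA per cell cannot be told apart.

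The named genes TAS14 and LEAS1 were close to silent in the WT meristem and abundant in *dgt*. TAS14, a dehydrin induced by salt and ABA, had 6792, 5676 and 5355 normalized counts in *dgt*, against 8.16, 12.8 and 8.64 in WT. LEAS1 had 6699, 6362 and 7299 normalized counts in *dgt*, against 17.3, 100.1 and 28.4 in WT. The log2 fold changes were 9.19 for TAS14 (standard error 0.26, edgeR adjusted p = 1.38e-05) and 7.09 for LEAS1 (standard error 0.62, edgeR adjusted p = 0.000302). LEAS1 shows how WT replicate 2 widens the spread, since its 100.1 counts there stand above both other WT libraries, and its log2 fold change without that library was 8.24. In both genes each *dgt* library lay far above each WT library. Genes were named only if their genotypes did not overlap, so the separation itself is no further evidence. Over all genes tested, 23.8% had all 3 *dgt* libraries above all 3 WT libraries, and 18.4% had them below.

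JA2 and JA2L, related NAC transcription factors that act in ABA and jasmonate responses, rose together. JA2 had 322, 265 and 349 normalized counts in *dgt*, against 3.06, 2.75 and 8.64 in WT (log2 fold change 6.05, standard error 0.36, edgeR adjusted p = 6.79e-05). JA2L had 579, 566 and 642 normalized counts in *dgt*, against 15.3, 26.6 and 11.1 in WT (log2 fold change 5.03, standard error 0.29, edgeR adjusted p = 6.72e-05). LeNCED1, the 9-cis-epoxycarotenoid dioxygenase of ABA synthesis, had 96.7, 89.3 and 94.9 normalized counts in *dgt*, against 4.08, 5.51 and 2.47 in WT (log2 fold change 4.46, standard error 0.29, edgeR adjusted p = 9.02e-05). The level of LeNCED1 was low in absolute terms even in *dgt*, with a mean of 2.52 TPM in *dgt* and 0.0967 TPM in WT. The lipoxygenase TomloxE reached 1081, 907 and 1312 normalized counts in *dgt*, against 30.6, 61.5 and 35.8 in WT (log2 fold change 4.67, standard error 0.30, edgeR adjusted p = 8.61e-05). THT1-3, a tyramine hydroxycinnamoyl transferase that makes phenolic amides for the cell wall, had 127, 87.4 and 137 normalized counts in *dgt*, against 5.10, 2.75 and 1.23 in WT (log2 fold change 5.18, standard error 0.40, edgeR adjusted p = 0.000162). All 5 of these genes kept their call in each fit that left out 1 library, although the log2 fold change of JA2 was 6.68 without WT replicate 3.

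The other named rises were USP (55.3-fold), Q`b, a basic glucanase of defence (44.8-fold), cevi19 (31.8-fold), the terpene synthase TPS38 (24.9-fold) and XIP1-1-beta, an aquaporin of the X intrinsic type (22.0-fold). Their edgeR adjusted p-values lay between 6.01e-05 and 0.00165. USP had no count in WT replicate 1 and TPS38 none in WT replicate 3, so their folds rest on few WT reads. The log2 fold change of USP was 6.61 without WT replicate 2, and that of TPS38 was 6.24 without WT replicate 1. XIP1-1-beta had 918, 1184 and 1014 normalized counts in *dgt*, against 84.6, 35.8 and 19.8 in WT, with a log2 fold change of 5.18 without WT replicate 1, against 4.46 with all 6 libraries.

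The largest fall among named genes with a symbol was that of ADH2, an alcohol dehydrogenase of ethanol fermentation and one of the more abundant transcripts of the WT meristem. It had 1196, 1571 and 1440.5 normalized counts in *dgt*, against 16121, 28669.9 and 24482 in WT, 16.5-fold lower in *dgt* (log2 fold change -4.04, standard error 0.28, edgeR adjusted p = 0.000102). On the TPM scale its mean was 48.8 TPM in *dgt* and 717 TPM in WT. cuAO, a copper amine oxidase that breaks down polyamines, had 13.9, 18.8 and 21.4 normalized counts in *dgt*, against 203, 129 and 175 in WT (log2 fold change -3.22, standard error 0.27, edgeR adjusted p = 0.000241). SP9D, of the family of flowering signals and their repressors to which SELF-PRUNING belongs, had 12.1, 11.3 and 13.3 normalized counts in *dgt*, against 87.7, 164 and 67.9 in WT (log2 fold change -3.12, standard error 0.39, edgeR adjusted p = 0.00138). No *dgt* library overlapped a WT library in any of the 3 genes, as the rule for naming genes required.

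ERF2, an ethylene response factor, had 207, 171 and 207 normalized counts in *dgt*, against 804, 1441 and 1038 in WT (log2 fold change -2.49, standard error 0.24, edgeR adjusted p = 0.000451). ABI3, a transcription factor of ABA responses best known from seeds, had 17.7, 21.6 and 14.3 normalized counts in *dgt*, against 87.7, 54.2 and 163 in WT (log2 fold change -2.48, standard error 0.44, edgeR adjusted p = 0.00628). PR-1a1, a pathogenesis-related protein, had 2116, 2389 and 1736 normalized counts in *dgt*, against 6091, 12453 and 5829 in WT (log2 fold change -1.97, standard error 0.32, edgeR adjusted p = 0.00465). WT replicate 2 was the highest WT library for ERF2 and PR-1a1 and the lowest for ABI3. Smaller falls were those of SlWRKY72b (3.67-fold), the inositol phosphatase 5PT1 (3.64-fold), Dea1 (3.07-fold) and AGP-1, an arabinogalactan protein (2.98-fold). AGP-1 lost its call without *dgt* replicate 3 (log2 fold change -1.53, edgeR adjusted p = 0.0535).

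SlFBA7, a fructose-bisphosphate aldolase of glycolysis, had 3735, 4644 and 3278 normalized counts in *dgt*, against 20831, 4917 and 18998 in WT (log2 fold change -1.94, standard error 0.49, edgeR adjusted p = 0.0262). WT replicate 2 lay next to the *dgt* libraries in this gene, and the log2 fold change without it was -2.36 (edgeR adjusted p = 5.04e-07). With WT replicate 2 in the fit, the call was lost without WT replicate 1, WT replicate 3, *dgt* replicate 1, *dgt* replicate 2 or *dgt* replicate 3 (log2 fold changes -2.10 to -1.63, edgeR adjusted p = 0.0741 to 0.115).

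**Figure D3:**
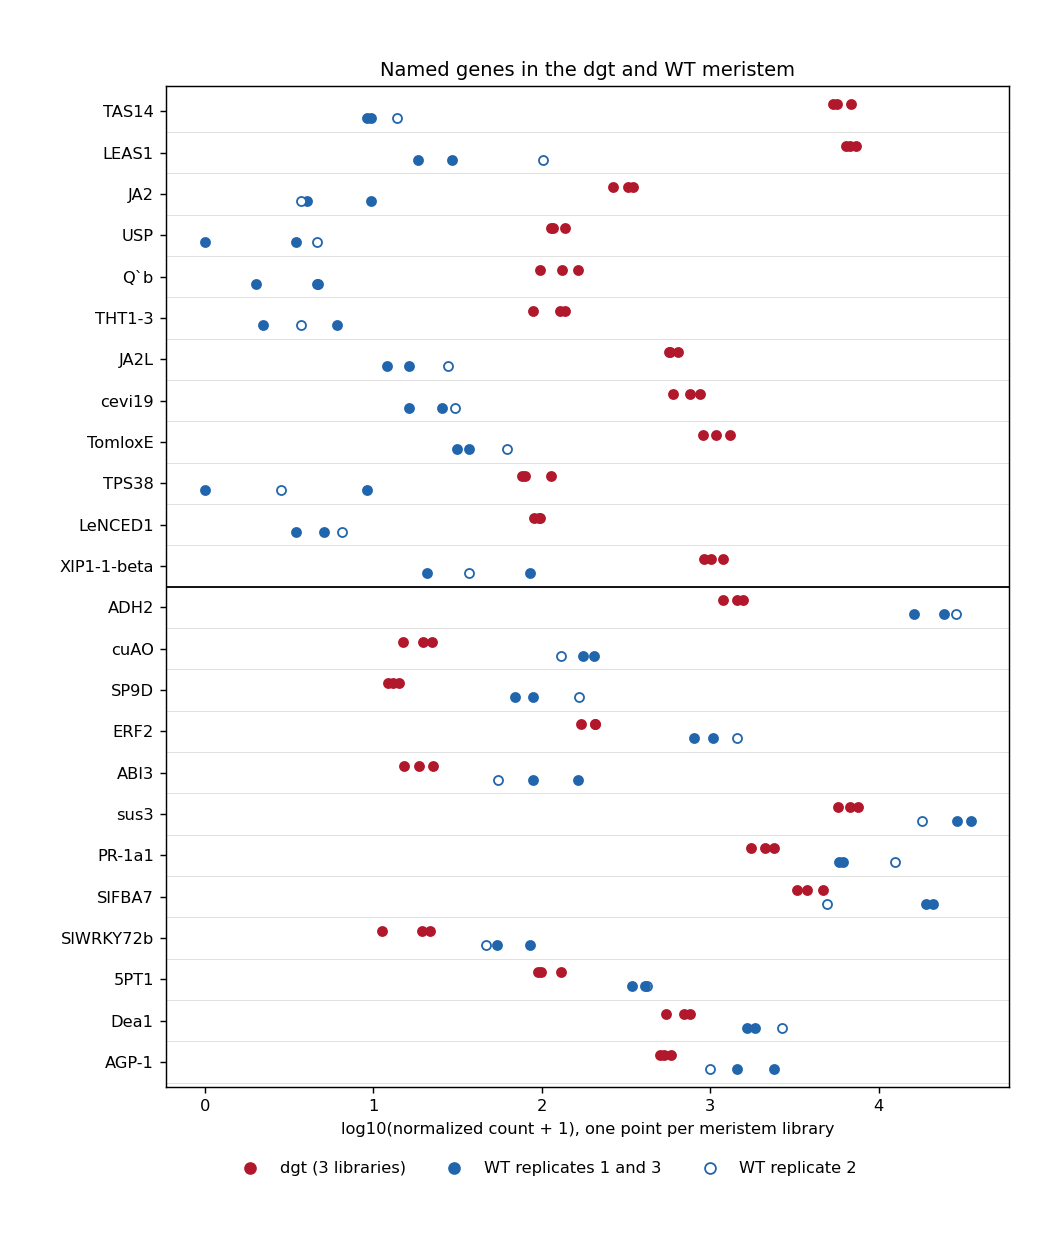
Normalized counts of the 12 named genes that rose (upper block) and the 12 that fell (lower block) in each meristem library, on a log10(count + 1) axis. Red points are the 3 *dgt* libraries, blue points WT replicates 1 and 3, and open points WT replicate 2. The red points lie to the right of all blue points in the upper block and to the left of them in the lower block. The rule for naming genes required this. WT replicate 2 comes closest to *dgt* in SlFBA7.

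Among genes without a symbol, LOC100750252 had 921, 710.5 and 706 normalized counts in *dgt*, against 1.02, 4.59 and 1.23 in WT (log2 fold change 8.26, edgeR adjusted p = 3.09e-05), and LOC101244792 had 459, 463 and 460.1 normalized counts in *dgt*, against 0, 4.59 and 0 in WT (log2 fold change 7.97, edgeR adjusted p = 9.62e-05). The WT reads of LOC101244792 came from WT replicate 2 alone, without which its log2 fold change was 11.82, and that of LOC100750252 was 9.29. LOC101264632, a long noncoding RNA in RefSeq, had 4.65, 0.940 and 2.04 normalized counts in *dgt*, against 742, 744 and 649 in WT (log2 fold change -8.05, edgeR adjusted p = 2.62e-05; log2 fold change -8.80 without *dgt* replicate 1). LOC101266128 fell 194-fold (log2 fold change -7.60, edgeR adjusted p = 2.62e-05). LOC101244962 had 2.79, 5.64 and 1.02 normalized counts in *dgt*, against 15.3, 236 and 114 in WT (log2 fold change -5.20, edgeR adjusted p = 0.0122), a wide spread within WT, and lost its call without *dgt* replicate 1 or *dgt* replicate 3 (log2 fold changes -5.11 to -4.82, edgeR adjusted p = 0.0591 to 0.0659). Its log2 fold change was -4.24 without WT replicate 2 and -5.89 without *dgt* replicate 2.

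On the TPM scale, which scales counts for transcript length, the most abundant genes that rose were LOC544187 (mean 5524 TPM in *dgt* and 689 TPM in WT), LEMT1, a metallothionein that binds metal ions (2462 TPM in *dgt* and 163 TPM in WT), the small nucleolar RNA LOC112942251 (2006 TPM in *dgt* and 221 TPM in WT) and the long noncoding RNA LOC101244679 (1954 TPM in *dgt* and 329 TPM in WT). The TPM of LOC112942251 rested on far fewer reads, a mean of 1681 normalized counts in *dgt* against 15581 for LOC101244679. LEMT1 had 23062, 19216 and 30356 normalized counts in *dgt*, against 1041, 2625 and 1835 in WT (log2 fold change 3.72, standard error 0.38, edgeR adjusted p = 0.000572). LOC544187 had 58585, 58609 and 90252 normalized counts in *dgt*, against 6516, 13067 and 9804 in WT (log2 fold change 2.82, standard error 0.34, edgeR adjusted p = 0.00115). LOC112942251 ranged widely within both genotypes, from 666 to 3378 normalized counts in *dgt* and from 54.0 to 313 in WT, and its call was lost without WT replicate 1, WT replicate 3, *dgt* replicate 2 or *dgt* replicate 3 (log2 fold changes 1.96 to 3.24, edgeR adjusted p = 0.0542 to 0.108).

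The most abundant genes that fell were LOC101254013 (1784 TPM in *dgt* and 3883 TPM in WT), the long noncoding RNA LOC112940166 (326 TPM in *dgt* and 1097 TPM in WT), LOC101264700 (266 TPM in *dgt* and 928 TPM in WT) and LOC109120969 (308 TPM in *dgt* and 859 TPM in WT). Their log2 fold changes were -1.3, -1.98, -1.86 and -1.66, in that order, with edgeR adjusted p-values from 0.00276 to 0.0143. LOC101254013 lost its call without *dgt* replicate 1, *dgt* replicate 2 or *dgt* replicate 3 (log2 fold changes -1.31 to -1.29, edgeR adjusted p = 0.0701 to 0.0731), LOC112940166 without *dgt* replicate 3 (log2 fold change -1.90, edgeR adjusted p = 0.0502) and LOC101264700 without *dgt* replicate 1 or *dgt* replicate 3 (log2 fold changes -1.8 to -1.72, edgeR adjusted p = 0.0734 to 0.0773). The library kit did not mark the strand, so reads of a noncoding RNA cannot be told from those of an overlapping gene.

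Presence and absence were more frequent in one direction. In 56 genes every WT library had at most 3 counts and every *dgt* library at least 50, and in 3 genes the reverse held. LE25, a late embryogenesis abundant protein, had 412, 295 and 475 rounded counts in *dgt*, against 0, 0 and 1 in WT, a ratio of 1090 (95% counting interval 195 to 43100) that covers counting error only. The long noncoding RNA LOC101245190 had 1336, 897 and 1119 normalized counts in *dgt*, against 0, 0.920 and 0 in WT, and LOC101254598 had 500.1, 491 and 441 normalized counts in *dgt*, against 2.04, 0.920 and 0 in WT. The 3 genes nearly absent from *dgt* were LOC101266522 (1.86, 0.940 and 1.02 normalized counts in *dgt*, against 1228, 397 and 1211 in WT), LOC112941663 (0, 1.88 and 1.02 normalized counts in *dgt*, against 357, 471 and 441 in WT) and LOC101266338 (0, 0 and 2.04 normalized counts in *dgt*, against 176, 123 and 190.2 in WT). RefSeq lists LOC101266522 and LOC101266338 as long noncoding RNAs.

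The number of expressed genes, with a TPM over 2, was 16577 ± 69 in *dgt* libraries and 15386 ± 759 in WT libraries (SD, n = 3 each), and the lowest WT value, 14526, was that of WT replicate 2. All 3 *dgt* libraries exceeded all 3 WT libraries (two-sided exact permutation test, p = 0.1, the smallest value that 3 against 3 allow).

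Pathways are described with 24 lists of genes found by symbol, which together hold 587 entries, 466 of them tested. Of these, 84 were higher and 25 lower. Without WT replicate 2, when a wider set of genes passed the filter on low counts, the numbers were 110 and 36. The counts given below for single lists without that library cover the members tested with all 6. Since the lists were chosen with earlier results of these data known, each list is described by its counts and its median log2 fold change, to be read beside the 10.1%, 2.72% and -0.04 of all genes tested.

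**Figure D4:**
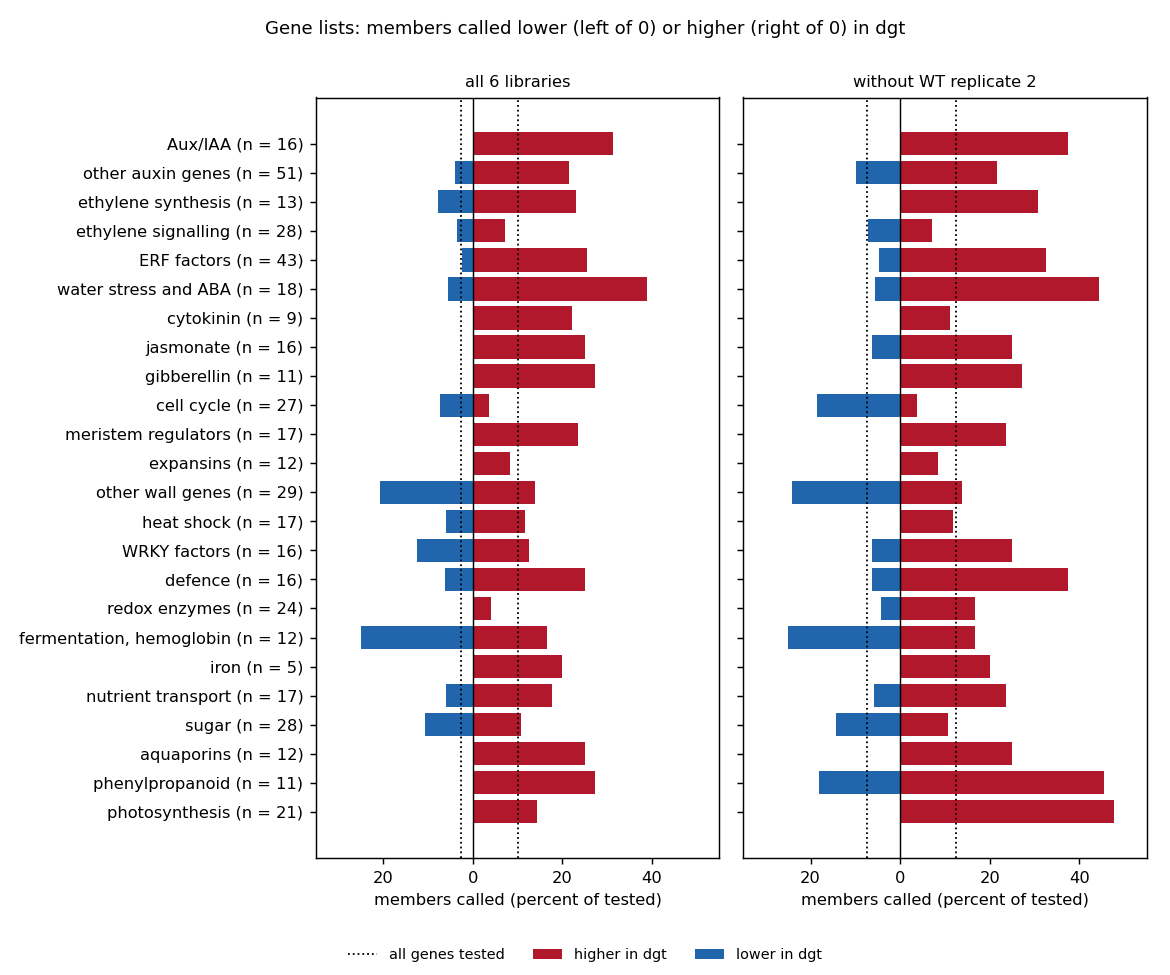
Share of the tested members of each gene list called higher in *dgt* (red, right of 0) or lower (blue, left of 0), with all 6 libraries (left panel) and without WT replicate 2 (right panel). Dotted lines mark the shares among all genes tested, 10.1% higher and 2.72% lower in the left panel and 12.5% and 7.45% in the right one. Water stress and ABA genes have the longest red bar in the left panel (7 of 18), and the red bar of photosynthesis genes grows from 3 to 10 of 21 members without WT replicate 2.

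Aux/IAA genes, whose proteins repress auxin responses, rose where they changed. Of 16 tested, 5 were higher and 0 lower in *dgt*, and the median log2 fold change of the list was 0.53. IAA10 had 359, 305 and 289.7 normalized counts in *dgt*, against 58.1, 60.6 and 58.0 in WT (log2 fold change 2.43, standard error 0.17, edgeR adjusted p = 0.000108). IAA8 had 554, 545 and 521 normalized counts in *dgt*, against 108, 115 and 80.3 in WT (log2 fold change 2.41, standard error 0.18, edgeR adjusted p = 0.000135). IAA3 had 635, 522 and 431 normalized counts in *dgt*, against 133, 161 and 148 in WT (log2 fold change 1.85, standard error 0.19, edgeR adjusted p = 0.000603). In each of these genes the lowest *dgt* library stood well above the highest WT library, WT replicate 2 included. They were named for the smallest p-values of the list, so this separation is no further evidence. All 3 *dgt* libraries lay above all 3 WT libraries in 23.8% of all genes tested. IAA13 (LOC101055546) rose 3.46-fold and SlIAA27 2.23-fold, the last losing its call without WT replicate 1 (log2 fold change 0.98, edgeR adjusted p = 0.0244). SlIAA8, an entry separate from IAA8, was not among the members called. IAA4 passed the adjusted p-value below 2-fold (log2 fold change 0.54, edgeR adjusted p = 0.0245), and the lowest value of the list was that of IAA5, with 14.9, 16.0 and 19.4 normalized counts in *dgt*, against 25.5, 33.0 and 32.1 in WT (log2 fold change -0.85, edgeR adjusted p = 0.0541). At any fold, 6 members passed the edgeR adjusted p-value as higher and 0 as lower, where 14.5% and 8.31% of all genes did so. Without WT replicate 2 these numbers were 12 and 0, against 26.5% and 26.2% of all genes.

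Of 51 other auxin genes tested, 11 were higher and 2 lower (median 0.37), and without WT replicate 2 the numbers were 11 and 5. Among auxin response factors, ARF1 had 587, 607 and 610.0 normalized counts in *dgt*, against 121, 118 and 102 in WT (log2 fold change 2.40, standard error 0.15, edgeR adjusted p = 7.97e-05). ARF2 rose 2.46-fold and ARF3 2.18-fold, and ARF3 lost its call without WT replicate 1, WT replicate 2, *dgt* replicate 1, *dgt* replicate 2 or *dgt* replicate 3 (log2 fold changes 0.99 to 1.18, edgeR adjusted p = 0.00238 to 0.0709). ARF6 had 332, 395 and 421 normalized counts in *dgt*, against 1235, 302 and 1316 in WT, so that WT replicate 2 lay below the *dgt* libraries, and it was called lower only without that library (log2 fold changes -1.31, edgeR adjusted p = 0.0872 with it and -1.74, edgeR adjusted p = 8.35e-07 without it).

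Among the PIN auxin efflux carriers, PIN3, PIN4 and PIN7 rose and PIN10 fell. PIN3 had 219, 155 and 181 normalized counts in *dgt*, against 38.8, 32.1 and 44.5 in WT (log2 fold change 2.27, standard error 0.22, edgeR adjusted p = 0.000482). PIN4 had 2267, 2223 and 2250.5 normalized counts in *dgt*, against 866, 664 and 1111 in WT (log2 fold change 1.35, standard error 0.20, edgeR adjusted p = 0.00301). PIN7 rose 2.08-fold and was lost without WT replicate 3 or *dgt* replicate 3 (log2 fold changes 0.96 to 0.98, edgeR adjusted p = 0.0238 to 0.0299). PIN10 had 68.8, 56.4 and 67.3 normalized counts in *dgt*, against 86.7, 168 and 175 in WT (log2 fold change -1.16, edgeR adjusted p = 0.0255) and was lost without WT replicate 3, *dgt* replicate 1, *dgt* replicate 2 or *dgt* replicate 3 (log2 fold changes -1.21 to -1.0, edgeR adjusted p = 0.0776 to 0.103).

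Genes of auxin synthesis and conjugation also changed. The flavin monooxygenases FZY5, FZY3 and FZY4, homologues of the YUCCA enzymes that complete auxin synthesis, rose 5.46-fold, 3.36-fold and 2.42-fold. FZY5 had 158, 141 and 125 normalized counts in *dgt*, against 26.5, 22.9 and 28.4 in WT (log2 fold change 2.45, standard error 0.21, edgeR adjusted p = 0.000241). FZY3, the most abundant of the 3, had 456, 528 and 493 normalized counts in *dgt*, against 114, 145 and 182 in WT (log2 fold change 1.75, standard error 0.20, edgeR adjusted p = 0.0009). The GH3 family joins hormones such as auxin to amino acids. Its member GH3-9 (LOC101262636) rose 2.38-fold and GH3-15 (LOC101264094) fell 2.42-fold, the first with 3638, 3724 and 3573 normalized counts in *dgt*, against 1079.8, 2092 and 1429.8 in WT (log2 fold change 1.25, edgeR adjusted p = 0.00917) and the second with 106, 106 and 101 normalized counts in *dgt*, against 248, 236 and 277 in WT (log2 fold change -1.28, edgeR adjusted p = 0.0012).

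Of 13 genes of ethylene synthesis tested, 3 were higher and 1 lower (median 0.01). ACS1A, an ACC synthase, which makes the direct precursor of ethylene, had 232, 136 and 202 normalized counts in *dgt*, against 37.7, 34.0 and 37.0 in WT (log2 fold change 2.39, standard error 0.25, edgeR adjusted p = 0.000603). ACS3 had 74.4, 84.6 and 82.6 normalized counts in *dgt*, against 8.16, 18.4 and 27.2 in WT (log2 fold change 2.18, standard error 0.36, edgeR adjusted p = 0.005). The ACC oxidase gene ACO3 rose 6.96-fold from a low level. The more abundant ACC oxidase gene aco5 was 2.02-fold lower with 6 libraries, with 1306, 1539 and 1178 normalized counts in *dgt*, against 2183, 3556 and 2389 in WT, and lost its call without WT replicate 2, *dgt* replicate 1 or *dgt* replicate 3 (log2 fold changes -1.0 to -0.77, edgeR adjusted p = 0.000268 to 0.0779).

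Of 28 genes tested that symbols placed under ethylene perception and signalling, 2 were higher and 1 lower, close to the shares among all genes. The lower one, ER69, entered by its symbol alone, and its part in signalling was not established. The receptor gene ETR6 had 132, 115 and 126 normalized counts in *dgt*, against 43.8, 53.2 and 34.6 in WT (log2 fold change 1.49, standard error 0.21, edgeR adjusted p = 0.00259). EIL3, of the family of EIN3-like transcription factors, had 899.7, 747 and 957 normalized counts in *dgt*, against 319, 299 and 288 in WT (log2 fold change 1.52, standard error 0.16, edgeR adjusted p = 0.000591). ER69 had 8865, 11581 and 8149 normalized counts in *dgt*, against 52212, 10442 and 46498 in WT (log2 fold change -1.93, edgeR adjusted p = 0.0372), with WT replicate 2 inside the *dgt* range. ER69 was lost without WT replicate 1, WT replicate 3, *dgt* replicate 1, *dgt* replicate 2 or *dgt* replicate 3 (log2 fold changes -2.11 to -1.58, edgeR adjusted p = 0.0965 to 0.144). EIN2, a membrane protein at the centre of the pathway, had 1158, 1272 and 1266 normalized counts in *dgt*, against 3533, 1142 and 3137 in WT, with WT replicate 2 just below the *dgt* libraries, and was called lower only without WT replicate 2 (log2 fold change -1.43, edgeR adjusted p = 1.24e-06).

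Of 43 ERF family genes tested, 11 were higher and only ERF2, described above, was lower (median 0.59), and without WT replicate 2 the numbers were 14 and 2. ERF5 had 214, 226 and 348 normalized counts in *dgt*, against 27.5, 42.2 and 54.3 in WT (log2 fold change 2.67, standard error 0.31, edgeR adjusted p = 0.000934). ERF-H8 (LOC101254925) had 98.5, 73.3 and 108 normalized counts in *dgt*, against 12.2, 15.6 and 19.8 in WT (log2 fold change 2.56, standard error 0.28, edgeR adjusted p = 0.000713). ERF-B5 (LOC101267295) rose 4.67-fold, and CBF1, best known from cold responses, had 47.4, 34.8 and 76.5 normalized counts in *dgt*, against 1.02, 5.51 and 3.70 in WT (log2 fold change 3.88, edgeR adjusted p = 0.00201; log2 fold change 4.48 without WT replicate 2). ERF84 (LOC101251084) had 107, 61 and 100 rounded counts in *dgt*, against 0, 1 and 0 in WT, a ratio of 247 (95% counting interval 44.0 to 9810). Scaling by library totals raised the count of higher ERF genes to 17.

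Water-stress and ABA genes had 7 of 18 tested members higher and 1, ABI3, lower (median 0.74). Besides TAS14, LEAS1, LE25 and LeNCED1, PP2C-2, a protein phosphatase of the family that restrains ABA signalling, had 399, 419 and 443 normalized counts in *dgt*, against 26.5, 31.2 and 25.9 in WT (log2 fold change 3.90, standard error 0.18, edgeR adjusted p = 3.09e-05). NCED2 (LOC100316877), of the same enzyme family as LeNCED1, had 125, 129 and 141 normalized counts in *dgt*, against 14.3, 21.1 and 27.2 in WT (log2 fold change 2.66, standard error 0.25, edgeR adjusted p = 0.000432). The *dgt* libraries of both genes differed little among themselves and lay above all WT libraries, as they did in 23.8% of all genes tested. AREB, a bZIP factor of ABA-responsive promoters, had 929, 958 and 935 normalized counts in *dgt*, against 470.1, 385 and 488 in WT (log2 fold change 1.07, edgeR adjusted p = 0.00236) and fell below the fold limit without WT replicate 2 (log2 fold change 0.98, edgeR adjusted p = 1.13e-05).

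Of 16 genes of jasmonate synthesis and signalling tested, 4 were higher and 0 lower (median 0.13), and without WT replicate 2 the numbers were 4 and 1. At any fold, 4 members passed the edgeR adjusted p-value as higher and 4 as lower, where 14.5% and 8.31% of all genes did so. The 4 called higher with 6 libraries were JA2, counted here for its symbol, TomloxE, TomloxC and AOS3, an allene oxide synthase. TomloxC had 31, 24 and 17 rounded counts in *dgt*, against 0, 0 and 1 in WT, and AOS3 had 16.7, 14.1 and 13.3 normalized counts in *dgt*, against 2.04, 3.67 and 3.70 in WT (log2 fold change 2.19, edgeR adjusted p = 0.00704), so both stayed at a low level.

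Of 11 gibberellin genes tested, 3 were higher and 0 lower (median 0.63), and all 3 were close to absent in WT. 20ox-2, an oxidase that makes precursors of active gibberellin, had 194, 156 and 133 rounded counts in *dgt*, against 1, 0 and 0 in WT, a ratio of 446 (95% counting interval 79.6 to 17600). GA2ox5, of the enzymes that inactivate gibberellin, had 151, 97 and 141 rounded counts in *dgt*, against 1, 1 and 2 in WT, a ratio of 89.8 (95% counting interval 34.8 to 331). GA2ox4 had 148, 123 and 189.8 normalized counts in *dgt*, against 10.2, 8.26 and 7.41 in WT (log2 fold change 4.13, standard error 0.28, edgeR adjusted p = 9.58e-05). The receptor gene GID1 had 1878, 1748 and 1681 normalized counts in *dgt*, against 905, 1329 and 1105 in WT (log2 fold change 0.67, edgeR adjusted p = 0.0294), below the fold limit. A gene of synthesis and genes of breakdown thus rose in the same libraries, each in all 6 fits that left out 1 library.

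Of 9 cytokinin genes tested, 2 were higher and 0 lower. LOG6, of the enzymes that release active cytokinin, rose 2.62-fold and was lost without *dgt* replicate 1 or *dgt* replicate 2 (log2 fold changes 1.27 to 1.34, edgeR adjusted p = 0.0599 to 0.0601). SlCKX4, a cytokinin oxidase that degrades the hormone, rose 2.29-fold and was lost without WT replicate 2, *dgt* replicate 1, *dgt* replicate 2 or *dgt* replicate 3 (log2 fold changes 1.00 to 1.23, edgeR adjusted p = 0.0041 to 0.0631).

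Of 27 cell cycle genes tested, 7 had a log2 fold change above 0, 1 was called higher and 2 lower, and the median log2 fold change was -0.41, or -0.07 without WT replicate 2, when 1 was higher and 5 lower. With library totals, 2 were higher and 0 lower. cdkB2, a kinase of the G2 to M transition, had 1469.5, 1509 and 1408 normalized counts in *dgt*, against 3073, 2669.9 and 2942 in WT, with a log2 fold change of -0.99 (standard error 0.14, edgeR adjusted p = 0.0023) that lay just inside the fold limit and passed it without WT replicate 2 (-1.04). The mitotic cyclin CycB2 had 219, 217 and 209 normalized counts in *dgt*, against 439, 346 and 384 in WT (log2 fold change -0.86, edgeR adjusted p = 0.00674). ccs52B, an activator of the anaphase-promoting complex, had 514, 503 and 610.0 normalized counts in *dgt*, against 1199, 1001 and 1070.5 in WT (log2 fold change -1.01, edgeR adjusted p = 0.00337), and its call was lost without WT replicate 1, *dgt* replicate 1 or *dgt* replicate 2 (log2 fold changes -0.97 to -0.94, edgeR adjusted p = 0.0141 to 0.0314). In these 3 genes every *dgt* library was below every WT library, as in 18.4% of all genes tested.

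The linker histone H1 had 3684, 3655 and 3359 normalized counts in *dgt*, against 6536, 8581 and 6289.6 in WT (log2 fold change -1.0, edgeR adjusted p = 0.00634) and lost its call without WT replicate 2 or *dgt* replicate 3 (log2 fold changes -0.96 to -0.84, edgeR adjusted p = 3.66e-05 to 0.0442). pcna, the sliding clamp of DNA replication, had 4596, 5325 and 4015 normalized counts in *dgt*, against 4709.7, 9686 and 4499 in WT (log2 fold change -0.44, edgeR adjusted p = 0.335), and its WT mean was raised by WT replicate 2. The kinase cdkB1 had 1274, 1341 and 1322 normalized counts in *dgt*, against 1393, 1894 and 1316 in WT (log2 fold change -0.23, edgeR adjusted p = 0.375). The cyclin CycA2 had 376, 406 and 369 normalized counts in *dgt*, against 1110.4, 290.1 and 780.3 in WT. RBR1, the retinoblastoma-related repressor of division, had 409.9, 508 and 438 normalized counts in *dgt*, against 1150.1, 269 and 1091 in WT. WT replicate 2 was below every *dgt* library in these genes, and both were called lower only without it (log2 fold changes -1.3 and -1.31). In the other direction, cycd3c2, a D type cyclin, had 608, 576 and 657 normalized counts in *dgt*, against 174, 275 and 258 in WT (log2 fold change 1.38, standard error 0.20, edgeR adjusted p = 0.00272). krp3, an inhibitor of cyclin-dependent kinases, had 606, 539 and 501 normalized counts in *dgt*, against 280.4, 337 and 289 in WT (log2 fold change 0.86, edgeR adjusted p = 0.00718), below the fold limit, which it passed with library totals.

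Of 17 meristem regulators tested, 4 were higher and 0 lower (median 0.39). BOP2 (LOC101246001), of the BLADE-ON-PETIOLE family that acts at organ boundaries, had 401, 438 and 689 normalized counts in *dgt*, against 24.5, 48.7 and 59.3 in WT (log2 fold change 3.53, standard error 0.36, edgeR adjusted p = 0.000555). BOP3 (LOC101245709) had 74.4, 68.6 and 91.8 normalized counts in *dgt*, against 10.2, 23.9 and 14.8 in WT (log2 fold change 2.24, standard error 0.32, edgeR adjusted p = 0.00265). KN1 and GRAS1 rose 2.14-fold and 2.35-fold. KN1 was lost without WT replicate 1, WT replicate 3, *dgt* replicate 1 or *dgt* replicate 3 (log2 fold changes 0.95 to 1.10, edgeR adjusted p = 0.0722 to 0.134), and GRAS1 without WT replicate 1, *dgt* replicate 1, *dgt* replicate 2 or *dgt* replicate 3 (log2 fold changes 1.08 to 1.3, edgeR adjusted p = 0.052 to 0.0874).

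Cell wall genes moved in both directions. Of 29 tested, 4 were higher and 6 lower (median -0.11), and of 12 expansins 1 was higher and 0 lower (median -0.14). Among xyloglucan enzymes, XTH5 had 377, 321 and 323 normalized counts in *dgt*, against 105, 169.8 and 129.6 in WT (log2 fold change 1.33, standard error 0.21, edgeR adjusted p = 0.0037), and BR1 (LOC543637) rose 3.0-fold (log2 fold change 1.59, edgeR adjusted p = 0.00414). A gene that RefSeq names XTH9 (LOC101261784), separate from the entry with XTH9 as its own symbol, had 538, 510.3 and 557 normalized counts in *dgt*, against 1103, 1151 and 1245 in WT (log2 fold change -1.12, edgeR adjusted p = 0.00117). PMEU1, a pectin methylesterase, fell 2.33-fold (log2 fold change -1.22, edgeR adjusted p = 0.00513), and cel5, an endoglucanase, had 0.930, 4.70 and 5.10 normalized counts in *dgt*, against 18.4, 30.3 and 32.1 in WT (log2 fold change -2.88, edgeR adjusted p = 0.00614). TBG6, a beta-galactosidase, had 1167, 1356 and 1098 normalized counts in *dgt*, against 3920.5, 1755 and 4103 in WT (log2 fold change -1.43, edgeR adjusted p = 0.0151) and was lost without *dgt* replicate 1, *dgt* replicate 2 or *dgt* replicate 3 (log2 fold changes -1.53 to -1.37, edgeR adjusted p = 0.0517 to 0.0773). The expansin EXP12 (LOC543795) rose 2.11-fold and was lost without WT replicate 3, *dgt* replicate 1 or *dgt* replicate 2 (log2 fold changes 0.90 to 1.06, edgeR adjusted p = 0.0323 to 0.0587). With scaling by library totals the log2 fold changes of XTH9 (LOC101261784) and PMEU1 were -0.91 and -0.99, inside the fold limit.

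Fermentation and hemoglobin genes had 3 of 12 tested members lower and 2 higher (median -0.18). Beside ADH2, ldh1, a lactate dehydrogenase, had 308, 328 and 273 normalized counts in *dgt*, against 575, 1058 and 763 in WT (log2 fold change -1.40, edgeR adjusted p = 0.00519). The nonsymbiotic hemoglobins moved apart. Glb1, whose class rises at low oxygen, had 957, 1002 and 608 normalized counts in *dgt*, against 1641, 3221 and 2593 in WT (log2 fold change -1.54, edgeR adjusted p = 0.00861), while Glb2 had 689.7, 639 and 528 normalized counts in *dgt*, against 142, 207 and 129.6 in WT (log2 fold change 1.95, standard error 0.22, edgeR adjusted p = 0.000864). SlADH2B7d, which the symbol placed in the list, rose 2.66-fold. All 5 calls held in each fit that left out 1 library.

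Sugar genes also went both ways, with 3 of 28 higher and 3 lower (median -0.21). The sucrose synthases sus3 and SUS4 went in opposite directions. sus3, the abundant one, had 5719, 7563 and 6751 normalized counts in *dgt*, against 29012, 18109 and 34974 in WT (log2 fold change -2.03, standard error 0.28, edgeR adjusted p = 0.00216), and SUS4 had 599.5, 588 and 709 normalized counts in *dgt*, against 314, 147 and 312 in WT (log2 fold change 1.3, edgeR adjusted p = 0.0164). The call of SUS4 was lost without *dgt* replicate 1, *dgt* replicate 2 or *dgt* replicate 3 (log2 fold changes 1.20 to 1.34, edgeR adjusted p = 0.0532 to 0.0735). sps, a sucrose phosphate synthase, had 1069.8, 1017 and 989.5 normalized counts in *dgt*, against 372, 289 and 300.0 in WT (log2 fold change 1.68, standard error 0.16, edgeR adjusted p = 0.000409). CIF1 (LOC543729) rose 13.6-fold (log2 fold change 3.77, edgeR adjusted p = 9.62e-05).

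LeSUT1, the phloem sucrose transporter, and FRK2, a fructokinase, fell 2.17-fold and 2.11-fold. LeSUT1 had 154, 146 and 184 normalized counts in *dgt*, against 356, 255 and 438 in WT and was lost without WT replicate 3, *dgt* replicate 1 or *dgt* replicate 2 (log2 fold changes -1.09 to -0.93, edgeR adjusted p = 0.035 to 0.0606). FRK2 was lost without WT replicate 3, *dgt* replicate 1, *dgt* replicate 2 or *dgt* replicate 3 (log2 fold changes -1.18 to -0.87, edgeR adjusted p = 0.0367 to 0.079). LeSUT1 is also the only marker of conducting tissue that was found, at 4.50 to 5.85 TPM in the *dgt* meristem and 5.84 to 14.1 TPM in the WT meristem, against 107 to 256 TPM in the other zones.

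Of 12 aquaporins tested, 3 were higher and 0 lower (median 0.15). With XIP1-1-beta rose the plasma membrane aquaporins PIP2-6 (LOC101258434), which had 3620.3, 2657 and 3061 normalized counts in *dgt*, against 644, 981 and 905 in WT (log2 fold change 1.88, standard error 0.21, edgeR adjusted p = 0.000824), and PIP2-1 (LOC101247747), which had 593, 477 and 604 normalized counts in *dgt*, against 135, 280.0 and 304 in WT (log2 fold change 1.22, edgeR adjusted p = 0.0227). PIP2-1 was lost without WT replicate 1, *dgt* replicate 1, *dgt* replicate 2 or *dgt* replicate 3 (log2 fold changes 0.93 to 1.31, edgeR adjusted p = 0.0219 to 0.0907).

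Defence genes had 4 of 16 tested members higher and PR-1a1 lower (median -0.27). CHI3, a chitinase, had 319.7, 274 and 289.7 normalized counts in *dgt*, against 39.8, 35.8 and 21.0 in WT (log2 fold change 3.17, standard error 0.25, edgeR adjusted p = 0.000163). TD2 (LOC543983), a threonine deaminase induced by jasmonate, had 42, 43 and 33 rounded counts in *dgt*, against 1, 0 and 0 in WT, a ratio of 109 (95% counting interval 19.2 to 4340). In the redox list 1 of 24 was higher, cevi19, which the defence list also holds, and 0 lower. Among 16 WRKY factors 2 were higher and 2 lower. Without WT replicate 2 the numbers higher and lower were 6 and 1 for defence, 4 and 1 for redox and 4 and 1 for WRKY genes. SlWRKY30 had 46, 36 and 17 rounded counts in *dgt*, against 1, 1 and 2 in WT. Of 11 phenylpropanoid genes 3 were higher and 0 lower, THT1-3, F3'H and CCR1, the cinnamoyl-CoA reductase of lignin synthesis, which had 52.0, 44.2 and 58.1 normalized counts in *dgt*, against 7.14, 21.1 and 12.3 in WT (log2 fold change 1.90, edgeR adjusted p = 0.00979). CCR1 was lost without *dgt* replicate 3 (log2 fold change 1.8, edgeR adjusted p = 0.0509), and the phenylpropanoid list had 5 higher and 2 lower members without WT replicate 2.

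Of 17 heat shock genes tested 2 were higher and 1 lower (median -0.01). Hsp20.0, a small heat shock protein, had 622, 673 and 739.6 normalized counts in *dgt*, against 248, 348 and 241 in WT (log2 fold change 1.28, edgeR adjusted p = 0.00301). BiP/grp78, the chaperone of the endoplasmic reticulum, had 7416, 7271 and 7952 normalized counts in *dgt*, against 16109, 18091 and 13844 in WT (log2 fold change -1.09, edgeR adjusted p = 0.00469) and came just inside the fold limit without WT replicate 2 (log2 fold change -0.99, edgeR adjusted p = 2.55e-05). Of 17 nutrient transport genes 3 were higher and 1 lower (median -0.18). At any fold, 5 of them passed the edgeR adjusted p-value as higher and 7 as lower, where 14.5% and 8.31% of all genes did so. AMT1-2, an ammonium transporter, had 561, 399 and 595 normalized counts in *dgt*, against 164, 264 and 173 in WT (log2 fold change 1.37, edgeR adjusted p = 0.00666). The PHO1 phosphate exporters differed, with PHO1-6 (LOC101248157) 5.08-fold higher and PHO1-1 (LOC101256919) 2.32-fold lower. Of 5 iron genes, NRAMP1 was higher (log2 fold change 1.36, edgeR adjusted p = 0.0174) and was lost without WT replicate 1, *dgt* replicate 1 or *dgt* replicate 3 (log2 fold changes 1.25 to 1.29, edgeR adjusted p = 0.0603 to 0.0856).

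Genes of the photosynthetic apparatus depended most on WT replicate 2. Of 21 tested, 3 were higher and 0 lower with 6 libraries (median -0.16), and 10 were higher and 0 lower without it (median 1.23). PSBR, a photosystem II protein, had 304, 257 and 276 normalized counts in *dgt*, against 14.3, 79.0 and 25.9 in WT (log2 fold change 2.78, edgeR adjusted p = 0.00762; log2 fold change 3.82 without WT replicate 2), and psbS had 59.5, 49.8 and 62.2 normalized counts in *dgt*, against 8.16, 22.0 and 11.1 in WT (log2 fold change 2.02, edgeR adjusted p = 0.00663). PSBO rose 2.13-fold and was lost without WT replicate 1, WT replicate 3, *dgt* replicate 1, *dgt* replicate 2 or *dgt* replicate 3 (log2 fold changes 0.85 to 1.14, edgeR adjusted p = 0.0652 to 0.109). Rbcs-3B, a Rubisco small subunit, had 89.2, 101 and 60.2 normalized counts in *dgt*, against 3.06, 56.0 and 6.17 in WT, and CAB13, a chlorophyll-binding protein, had 48.3, 39.5 and 34.7 normalized counts in *dgt*, against 6.12, 87.2 and 12.3 in WT. Their log2 fold changes were 1.87 and 0.17 with 6 libraries and 4.19 and 2.17 without WT replicate 2. CAB1B had 38.1, 41.4 and 40.8 normalized counts in *dgt*, against 13.3, 243 and 42.0 in WT, far higher in that library than in the other 5. The summed level of the 22 green-tissue genes in the files was 95.9 to 106 TPM in the *dgt* meristem and 29.4, 115 and 52.6 TPM in WT replicates 1, 2 and 3, and in the other zones it was 235 to 910 TPM in *dgt* and 30.7 to 195 TPM in WT.

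The effect of *dgt* in the meristem was also set against the mean of its effects in the other zones, over all 18 libraries. Of 21969 genes tested, 1350 (6.15%) had an effect more than 2-fold higher in the meristem and 970 (4.42%) one more than 2-fold lower. THT1-3, cevi19, JA2L and TomloxE rose in the meristem and had log2 fold changes below 1 in at least 1 other zone. THT1-3 had log2 fold changes of 5.14 in the meristem, -0.04 in the elongation zone and -0.10 in the differentiation zone, a difference of 5.21 (edgeR adjusted p = 3.11e-07). For JA2L they were 4.99 in the meristem, 0.99 in the elongation zone and 0.37 in the differentiation zone, a difference of 4.31 (edgeR adjusted p = 4.52e-08). cuAO fell in the meristem, with log2 fold changes of -3.24 in the meristem, 3.22 in the elongation zone and -0.09 in the differentiation zone and a difference of -4.81 (edgeR adjusted p = 5.17e-09). TAS14 did not pass this test, with 9.16 in the meristem, 9.81 in the elongation zone and 8.10 in the differentiation zone and a difference of 0.21 (edgeR adjusted p = 0.761). ERF2 also did not pass it, with -2.52 in the meristem, -2.07 in the elongation zone and -2.09 in the differentiation zone and a difference of -0.45 (edgeR adjusted p = 0.308).

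**Figure D5:**
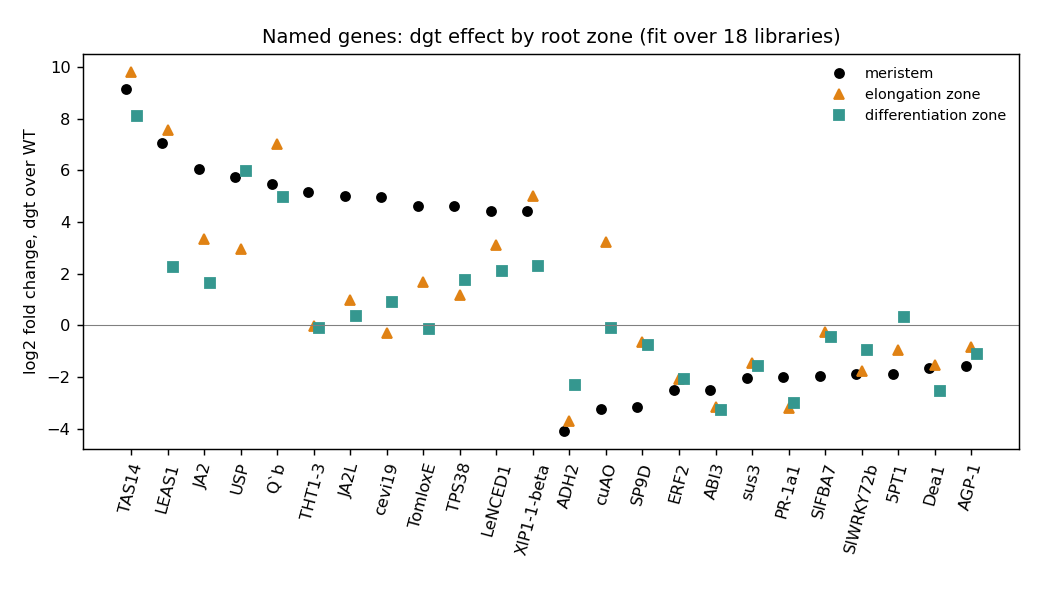
Log2 fold change of *dgt* over WT (y axis) for the 24 named genes (x axis) in the meristem (black circles), the elongation zone (orange triangles) and the differentiation zone (teal squares), from 1 fit over 18 libraries. THT1-3, JA2L, cevi19 and TomloxE stand highest in the meristem, cuAO is low there and high in the elongation zone, and TAS14 is high in each zone.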

How the data were processed

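The authors extracted reference transcripts from the tomato Heinz 1706 genome, aligned single-end 51-base reads to them with RSEM, and deposited for each gene an expected count, not normalized, and a TPM value scaled for transcript length and library total. CASAVA 1.8.2 is named in the submitters' processing notes. Isoform files were not used, nor were the authors' tables of their own EBSeq comparisons, which hold posterior probabilities and fold changes. EBSeq was not available, so expected counts were rounded and tested in R 4.3.3 with edgeR version 4.0.16 (glmQLFit, glmQLFTest, filterByExpr with minimum count 10 and total 15, TMM, prior count 0.125) on the 6 meristem libraries, which the labels call biological replicates. The zone contrast used all 18 libraries. An RSEM count divides a read among the transcripts it matches, so genes with close copies are uncertain.

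Alternatives were DESeq2 1.42.0, limma 3.58.1 (voom with sample quality weights), RLE size factors, library totals, no low-count filter, all 18 libraries in 1 fit, a replicate block, a length trend removed (lowess span 0.3) and each library left out. The procedures were tested on simulated data with the same dispersion in every library and no trend with gene length. How they handle a library such as WT replicate 2 was thus not tested by simulation. Totals per library were 17919441 to 29133603, and 95% counting intervals cover counting error only. Figures used Python 3.11.15, numpy 2.4.6, pandas 2.3.3 and matplotlib 3.10.9.

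Named genes passed the call with 6 libraries and without WT replicate 2, had genotypes whose libraries did not overlap, averaged 50 or more normalized counts where higher, and exceeded 3 counts in some library of each genotype. The text names the 12 largest rises and 12 largest falls with a symbol, the 3 largest of each kind whatever the name, the 4 most abundant of each kind, the 3 highest of each kind that were absent from 1 genotype (at most 3 counts against at least 50), CyP, and in each list the members of smallest p and those needed to say what the list did. Of 29922 genes, 2302 carried a symbol, and 550 LOC identifiers took one from RefSeq (assembly SLM_r2.1), used for names only. The members and the lists were chosen with earlier results of these data known. Entries that a list matched by spelling alone, such as AGP-1 among sugar genes, were removed by name, for AGP-1 after its values were seen. The values of 1 auxin gene, counted in its list, are not reported here.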

Additional observations from a re-analysis of the deposited data

Results flagged for a closer look

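The effect of *dgt* differed between the meristem and the mean of the other zones, by the test of the difference itself, for 1350 genes in which it was higher in the meristem and 970 in which it was lower (edgeR with Benjamini-Hochberg adjustment, p below 0.05 and a difference over 2-fold). At any size, 3987 of 21969 genes passed the adjusted p-value.

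Among named genes with a higher effect in the meristem, the log2 difference was 5.21 for THT1-3, 4.65 for cevi19, 4.31 for JA2L, 3.87 for TomloxE, 3.55 for JA2, 2.14 for LEAS1 and 1.82 for LeNCED1. JA2 had log2 fold changes of 6.03 in the meristem, 3.32 in the elongation zone and 1.65 in the differentiation zone. LEAS1 had 7.04 in the meristem, 7.56 in the elongation zone and 2.24 in the differentiation zone, so the value of the elongation zone was the highest of the 3, and its difference was 3.32 without WT meristem replicate 2. Among genes named for abundance or absence, the difference was 8.87 for LOC101245190, 4.32 for LOC112942251, 1.83 for LEMT1 and 1.42 for LOC101244679. That of LOC101245190 was 10.76 without WT meristem replicate 2, where its remaining WT meristem counts were all 0 and the size depends on the prior count. LOC112942251 had log2 fold changes of 2.94 in the meristem, -4.31 in the elongation zone and 1.56 in the differentiation zone. PR-1a1, lower on average in *dgt* in each zone, had a difference of 1.11 with log2 fold changes of -2.01 in the meristem, -3.20 in the elongation zone and -3.02 in the differentiation zone.

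Among genes with a lower effect in the meristem, the log2 difference was -8.64 for LOC101244962, -4.81 for cuAO, -2.48 for SP9D, -1.60 for SlFBA7, -1.58 for 5PT1, -1.53 for LOC101264700 and -1.06 for ADH2. The difference of ADH2 was -0.85 without WT meristem replicate 2, inside the 2-fold limit, and that of LOC101244962 was -7.64 without the same library. SP9D had log2 fold changes of -3.17 in the meristem, -0.63 in the elongation zone and -0.75 in the differentiation zone, and LOC101244962 had -5.25 in the meristem, 5.26 in the elongation zone and 1.52 in the differentiation zone. The causes of these differences between zones were not tested.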

How the results depend on the processing

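The number of genes lower in *dgt*, 542 with 6 libraries, was 260 with library totals, 1357 with limma-voom and sample quality weights and 926 with all 18 libraries in 1 fit, and ranged from 301 to 1515 when single libraries were left out. The number of higher genes, 2019, ranged from 1494 to 2539 when single libraries were left out, and from 1804 to 2591 over the other settings. Higher genes made up 90.9% of calls with library totals and 63.8% with limma-voom. List members lower in *dgt* numbered 25, and 11 with library totals. For the zone contrast, genes lower in the meristem numbered 970, 1770 without WT meristem replicate 2 and 1699 with limma-voom. The zone difference of LOC101266338, 0.17 and not called, was -2.15 with limma-voom. The cause of these shifts was not tested.

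Of 140 genes with settings computed one by one, 124 were called with 6 libraries, 90 of them in every fit that left out 1 library. DESeq2 ended the call of none, library totals of 14 and limma-voom of 10, and no log2 fold change of a called gene changed sign. The number of expressed genes differed in the same direction at TPM over 1 and TPM over 5, by 1310 and 918 genes, where 3 against 3 cannot go below p = 0.1 by an exact permutation test. Whether equal replicate numbers mark pairs could not be settled. Deviations from the group means correlated at -0.146, -0.149 and 0.153 between same-numbered libraries, but WT replicate 2 enters the group mean behind every WT deviation. With the replicate block the counts were 1804 higher and 400 lower genes, 83 and 21 list members, and 1283 and 699 genes for the zone contrast, and 7 of the 140 genes lost their call. Without WT replicate 2 the design keeps 5 libraries. At this depth a gene at 0 to 3 counts in a genotype has no firm fold change, as the wide counting intervals of 20ox-2 and LE25 show.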
